A study of Mus musculus with 28 samples.

Results

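The mitochondrial ribosomal proteins described here were 74 mouse genes, 46 named Mrpl and 28 named Mrps, chosen as the symbols of that form that both deposited array tables share. They stood among 19928 genes of the liver and quadriceps table and 30062 genes of the heart and gastrocnemius table, of which 18970 were common to both. Each gene was represented by 1 probe set per table, the one with the highest mean. By their platform symbols, 3 further genes matched in the liver and quadriceps table alone and are no members. In the other table Mrpl58 stands under its older symbol Ict1, and the probe sets of Mrpl30 and Mrps6 each carry a second gene. Another 4 symbols, all pseudogenes, matched in the heart and gastrocnemius table alone.

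The study profiled metabolic organs of young and aged mice, to establish how expression differs with age. The older group was killed at 24 months (103 weeks) and the younger at 6 months (24 weeks), in both cases after an overnight fast. All animals were female C57BL/6J mice, an inbred strain, kept in groups on standard chow, and no further treatment is labelled. Liver and quadriceps gave 3 arrays per age, and heart and gastrocnemius gave 4 arrays per age, 28 arrays in all. Nothing in the labels ties an array to an animal. The p-values therefore rest on the spread between these arrays, which may be technical.

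Mitochondria carry their own ribosome, which translates the few proteins encoded by mitochondrial DNA, all of them subunits of the oxidative phosphorylation complexes. Its rRNAs are transcribed inside the organelle, whereas all its proteins are encoded in the nucleus, made in the cytosol and imported. Compared with its bacterial relative it has gained many proteins of its own, so the members fall into proteins with a bacterial counterpart and proteins specific to mitochondria. Among the members, 29 large-subunit and 15 small-subunit proteins were counted as having a bacterial counterpart. Another 19 large-subunit and 10 small-subunit proteins were counted as specific to mitochondria. Mrpl55 was placed with the former, and Mrps18a and Mrps18b with the latter. Other placings were not compared. Some names mislead. Mrps30 and Mrps18a sit in the large subunit and are counted there, and Mrps36 is now known as a component of the 2-oxoglutarate dehydrogenase complex.

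The 74 genes lie on 17 chromosomes. RefSeq promoters (GRCm38.p6, from 250 bases before to 50 bases after the start) were matched for 65 of them. Not matched were Mrpl4, Mrpl13, Mrpl15, Mrpl19, Mrpl38, Mrpl54, Mrps28, Mrps34 and Mrps35. Both strands were searched for the palindromic core of the NRF1 motif, for CCGGAAG, a core of ETS factors such as GABP, for AANATGGCG, a core of the YY1 motif, and for TATAAA. NRF1 and GABP are textbook regulators of nuclear genes for mitochondrial proteins. The 6 promoters below belong to genes whose values recur in the results, 4 with a match and 2 without, and capitals mark the matches to the first 3 motifs. The Mrpl51 window (chr6:125191950-125192249, + strand) holds 1 ETS match. The Mrps18a window (chr17:46110754-46111053, + strand) holds 1 ETS and 1 YY1 match. The Mrpl43 window (chr19:45006393-45006692, - strand) holds 2 ETS matches. The Mrpl39 window (chr16:84735195-84735494, - strand) holds 1 NRF1 match. The Mrpl24 window (chr3:87919294-87919593, + strand) and the Mrps36 window (chr13:100744610-100744909, - strand) hold none of these letters.
Mrpl51: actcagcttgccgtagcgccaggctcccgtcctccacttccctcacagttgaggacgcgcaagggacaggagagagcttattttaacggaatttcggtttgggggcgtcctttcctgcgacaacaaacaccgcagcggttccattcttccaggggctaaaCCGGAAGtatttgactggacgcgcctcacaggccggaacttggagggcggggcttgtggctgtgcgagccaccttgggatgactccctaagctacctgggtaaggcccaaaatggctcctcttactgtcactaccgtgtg
Mrps18a: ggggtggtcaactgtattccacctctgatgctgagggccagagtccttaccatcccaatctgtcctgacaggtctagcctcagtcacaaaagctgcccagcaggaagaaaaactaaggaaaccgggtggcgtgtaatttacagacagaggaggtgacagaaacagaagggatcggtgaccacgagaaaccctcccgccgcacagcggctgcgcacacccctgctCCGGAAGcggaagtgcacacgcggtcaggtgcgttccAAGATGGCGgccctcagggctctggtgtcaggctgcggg
Mrpl43: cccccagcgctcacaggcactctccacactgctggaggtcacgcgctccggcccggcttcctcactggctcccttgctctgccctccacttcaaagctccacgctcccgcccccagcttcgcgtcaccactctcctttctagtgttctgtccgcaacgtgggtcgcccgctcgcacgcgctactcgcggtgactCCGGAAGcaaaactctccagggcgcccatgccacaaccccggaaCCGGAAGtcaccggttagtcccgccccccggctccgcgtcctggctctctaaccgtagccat
Mrpl39: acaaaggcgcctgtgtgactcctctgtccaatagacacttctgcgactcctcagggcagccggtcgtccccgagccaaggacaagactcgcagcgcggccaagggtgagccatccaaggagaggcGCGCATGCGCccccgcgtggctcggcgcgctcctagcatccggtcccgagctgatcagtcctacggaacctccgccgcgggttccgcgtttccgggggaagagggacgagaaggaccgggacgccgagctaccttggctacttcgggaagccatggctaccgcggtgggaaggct
Mrpl24: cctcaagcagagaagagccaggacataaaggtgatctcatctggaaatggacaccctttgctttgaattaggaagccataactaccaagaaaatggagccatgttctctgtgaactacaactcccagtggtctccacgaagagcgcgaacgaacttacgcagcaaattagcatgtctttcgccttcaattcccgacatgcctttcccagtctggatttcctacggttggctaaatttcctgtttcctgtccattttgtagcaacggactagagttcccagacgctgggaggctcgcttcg
Mrps36: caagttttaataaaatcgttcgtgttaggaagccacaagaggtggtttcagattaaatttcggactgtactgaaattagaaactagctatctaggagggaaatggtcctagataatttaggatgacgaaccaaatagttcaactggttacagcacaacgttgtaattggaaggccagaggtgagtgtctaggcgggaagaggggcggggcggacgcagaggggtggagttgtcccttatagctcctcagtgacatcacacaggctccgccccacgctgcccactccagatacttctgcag

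The ETS letters occurred in 24 of the 65 promoters (36.9%), against 9.93% of the promoters of 27025 genes. The NRF1 core occurred in 12 (18.5%, against 5.19%) and the YY1 letters in 10 (15.4%, against 2.76%). At least 1 of the 3 was present in 39 promoters (60%, against 15.9%). TATAAA was the exception, in 5 promoters (7.69%, against 15.7%). A neighbour on the opposite strand started within 500 bases of 22 members (33.8%, against 10.9% of all genes). Such pairs included Mrpl43 with Twnk, the mitochondrial DNA helicase, Mrps12 with Sars2, a mitochondrial seryl-tRNA synthetase, Mrpl47 with Ndufb5, a complex I subunit, and the members Mrpl46 and Mrps11 with each other. These are matches of letters and distances in fixed windows. Binding was not measured.

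The values were log2 expression after RMA, on which a difference of 1 is a 2-fold change. Precision is limited by how few arrays each group has. Tissue labels were checked against marker genes. Alb, which encodes albumin, read 14.09 to 14.16 in liver, Myh4, a fast skeletal muscle myosin, 13.70 to 13.83 in quadriceps and 13.55 to 13.62 in gastrocnemius, and Myh6, the cardiac myosin, 13.16 to 13.29 in heart. Alb also reached 11.91 in a quadriceps array and 9.54 in a heart array. The exocrine pancreas list averaged 9.73 in replicate 2 of the 24-month livers, against at most 6.59 in the other 24-month livers and 6.28 in the 6-month livers. No pair of arrays of one tissue was identical in more than 4.26% of genes.

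At 24 months the mitochondrial ribosomal protein genes read lower than at 6 months in liver and gastrocnemius, by small amounts across most of the set, while quadriceps leaned the same way less and heart showed almost no shift. The mean was lower in 67 of 74 members in liver, 47 in quadriceps, 33 in heart and 67 in gastrocnemius. The median difference was -0.19 in liver, -0.04 in quadriceps, 0.01 in heart and -0.12 in gastrocnemius, in log2 units. Over all genes the same median was 0.03, 0.01, 0.01 and 0.02, in the same order of tissues. No single member passed the threshold in any tissue (limma, Benjamini-Hochberg adjusted p under 0.05 over all genes of the table). The counts and medians over the set are descriptions, with no test of the set. In RNA from whole tissue, fewer cells of a type and less RNA per cell cannot be told apart.

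**Figure D1:**
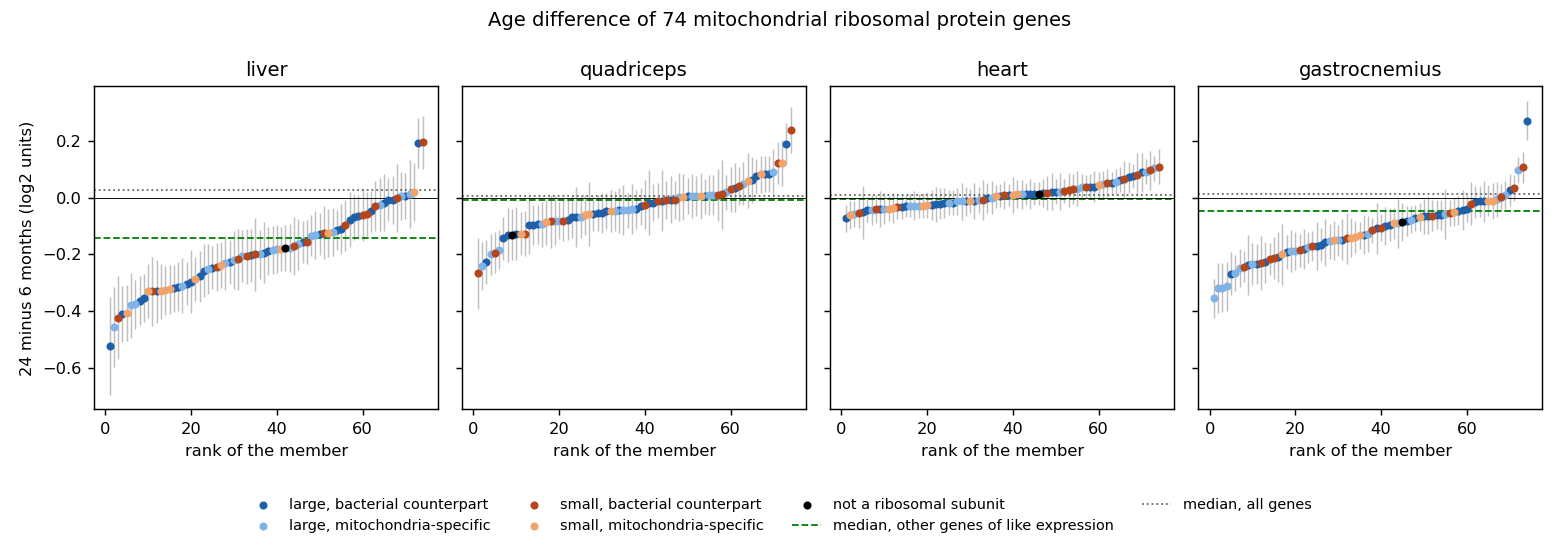
Difference between 24 and 6 months (log2 units, with its standard error) for each of the 74 members, ranked within each of 4 tissues and coloured by subunit and by whether a bacterial counterpart exists. Most points lie below 0 in liver and gastrocnemius, where the medians of the members are -0.19 and -0.12, and around 0 in heart.

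Other genes of similar signal also read lower in these tissues. Genes of like expression were defined as the other genes whose mean lay between the lower and upper quartile of the members' means in that tissue. In liver their median difference was -0.14, and 80.8% of these 3798 genes read lower at 24 months, against 45.1% of all genes. In gastrocnemius their median was -0.05, with 64.9% of 2782 genes lower, against 44.0% of all genes. The members' medians of -0.19 and -0.12 lay below those of like genes in both tissues. In quadriceps the like genes had a median of -0.01, with 51.8% lower, against 46.4% of all genes, and in heart a median of -0.01, with 52.6% lower, against 43.2% of all genes.

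**Figure D2:**
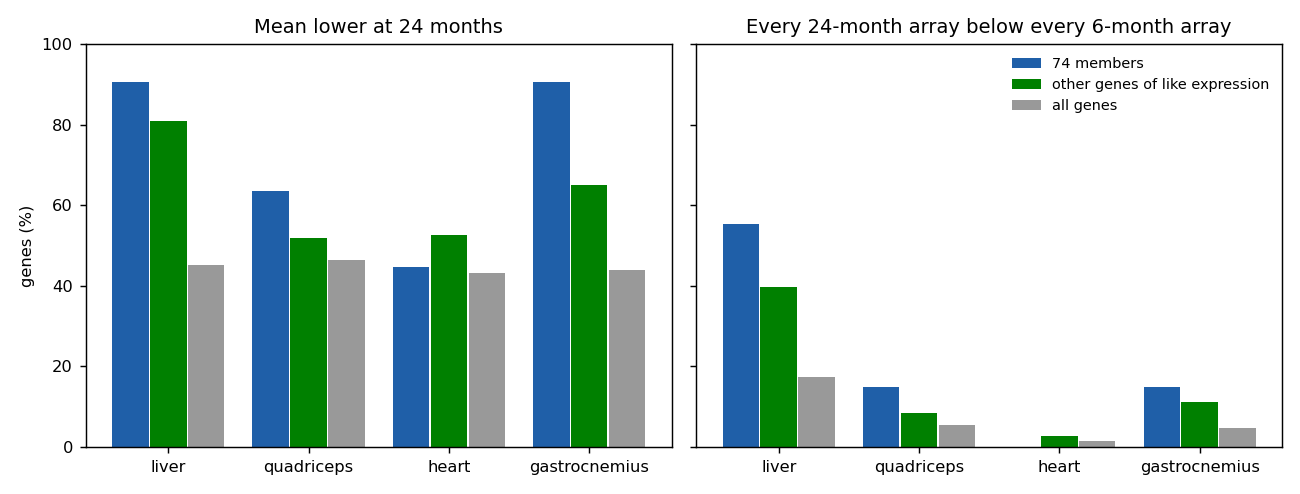
Percentage of genes whose mean was lower at 24 months (left) and whose 24-month arrays all lay below all 6-month arrays (right), for the 74 members, other genes of like expression and all genes, in each tissue. The bars of like genes in liver (80.8% and 39.7%) stand far above those of all genes (45.1% and 17.4%).

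In liver, limma called 0 of 74 members at an adjusted p under 0.05, where 0.326% of all genes were called. Unadjusted p-values under 0.05 were found for 31 members that were lower and 0 that were higher, against 14.4% and 18.4% of all genes. Of like genes, 33.4% were lower by that measure. The 24-month arrays all lay below the 6-month arrays for 41 members, against 17.4% of all genes and 39.7% of like genes, and all above for Mrpl28 alone, against 18.7% of all genes. By class, the median difference was -0.19 for large-subunit proteins with a bacterial counterpart, -0.18 for mitochondria-specific large-subunit proteins, -0.16 for small-subunit proteins with a counterpart and -0.31 for mitochondria-specific small-subunit proteins. Of the 10 last-named genes, 8 had an unadjusted p under 0.05, among them Mrps27, a pentatricopeptide repeat protein, Mrps31 and Mrps22. The count of called members depended on the setting: it was 15 to 38 under 5 of 10 alternatives that kept all arrays, where 9.84% to 39.6% of all genes were called, and 26 without replicate 3 of the 24-month livers, where 25.5% were.

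The smallest adjusted p in liver belonged to Mrpl51, a mitochondria-specific protein of the large subunit. It read 9.18, 9.34 and 9.42 in the 24-month livers, against 9.66, 9.65 and 9.76 in the 6-month livers. The ages did not overlap, and the difference was -0.38 ± 0.09 (SE, n = 3 and 3, adjusted p = 0.0571). A second probe set of Mrpl51 gave -0.53 in liver. Neither probe set was checked for its place in the genome.
Mrpl24, which lies near the exit of the peptide tunnel, read 9.0, 9.05 and 9.19 in the 24-month livers, against 9.38, 9.42 and 9.53 in the 6-month livers, a difference of -0.36 (adjusted p = 0.0571). Mrpl20, a large-subunit protein with a bacterial counterpart, read 8.37, 8.26 and 8.49 at 24 months, against 8.75, 8.74 and 8.69 at 6 months, a difference of -0.35 (adjusted p = 0.0575). For both genes, too, every older liver lay below every younger one. These 3 genes passed the threshold under those same 5 alternatives and without replicate 3 of the 24-month livers.

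The mean was higher in older liver for 6 members, where 54.3% of all genes were higher. Mrpl28 had 8.58, 8.36 and 8.44 at 24 months, against 8.21, 8.24 and 8.35 at 6 months, and the groups were only just separate (difference 0.19, adjusted p = 0.16). Mrps16, a small-subunit protein with a bacterial counterpart, had 8.89, 8.93 and 8.64 at 24 months, against 8.61, 8.64 and 8.62 at 6 months, so replicate 3 of the older livers fell inside the younger range. Mrps26 differed by 0.02 with overlapping arrays, and its sign turned under some alternatives. The most negative difference, -0.52 for Mrpl47, rested on 2 arrays. This protein of the tunnel exit read 6.61, 6.66 and 7.31 in the 24-month livers, against 7.26, 7.46 and 7.43 in the 6-month livers. Its second probe set gave 0.05 in liver and 0.05 in quadriceps, so the 2 probe sets disagree in direction.

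Replicate 3 of the 24-month livers lay closest to the younger livers over the whole set. The median deviation of the members from the 6-month mean was -0.25, -0.21 and -0.12 in the 24-month livers, against -0.02, -0.02 and 0.05 in the 6-month livers. Genes of like expression deviated by -0.19, -0.16 and -0.07 in the same 24-month arrays. The spread of values within an array differed too: the interquartile range was 2.43, 2.49 and 2.66 at 24 months, against 2.75, 2.79 and 2.79 at 6 months. After quantile normalization the median of the members was -0.09, with 51 lower. The part of this spread in the members' values was not tested otherwise.

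Several marker lists, of immune cells and of other cells, also differed between the ages in liver. The mean of 4 B and plasma cell markers (of 5 listed) ranged from 6.38 to 7.04 in the 24-month livers, against 5.91 to 6.28 in the 6-month livers. For 6 T and NK cell markers the range was 5.88 to 6.19, against 5.55 to 5.79, and for 5 neutrophil markers 5.86 to 5.99, against 5.49 to 5.69. The 5 hepatocyte markers ran from 13.75 to 13.83 at 24 months, against 13.84 to 13.85 at 6 months. Among lists of cells foreign to liver, the 5 skeletal muscle markers were higher, at 6.20 to 6.38, against 5.95 to 6.03. So were 3 of 5 Schwann cell markers, at 5.51 to 5.55, against 5.11 to 5.22. The cardiomyocyte (6.16 to 6.39, against 6.13 to 6.27), atrial, adipocyte and exocrine pancreas lists overlapped between the ages. The T and NK cell, neutrophil, skeletal muscle and Schwann cell lists all read below the medians of the liver arrays, which ran from 6.47 to 6.62. The 6 macrophage markers overlapped, at 8.30 to 8.74, against 8.35 to 8.41. The part of these lists in the members' values was not tested. Without replicate 2, the liver with high pancreas markers, the count of called members stayed at 0 and their median difference was -0.18.

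**Figure D3:**
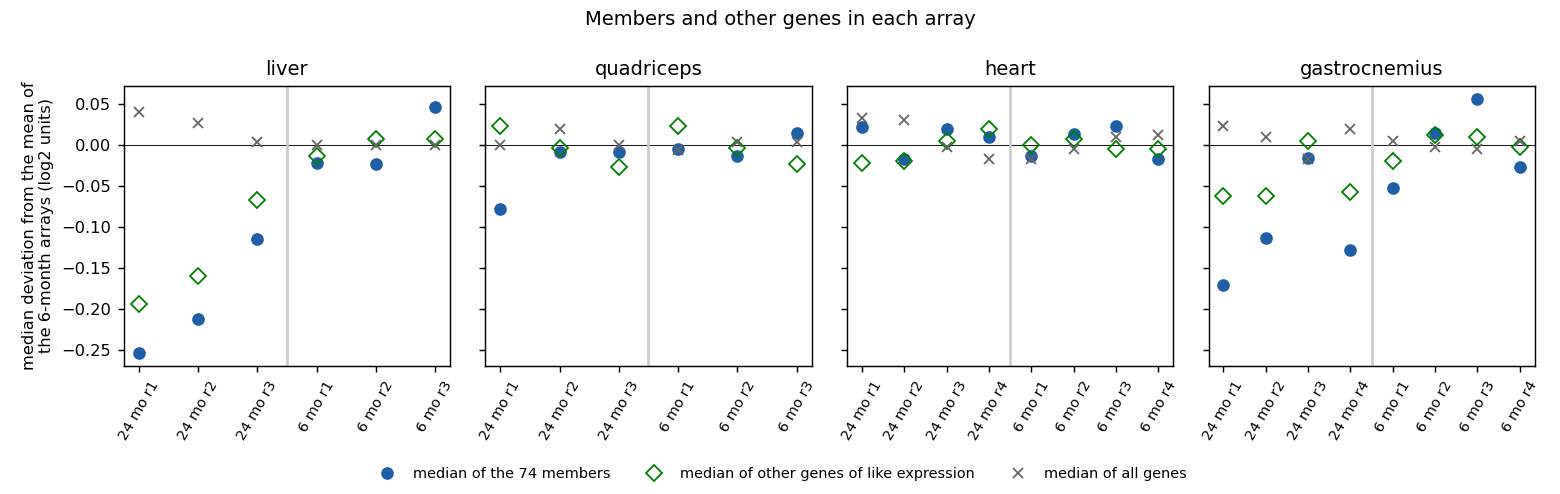
Median deviation from the mean of the 6-month arrays (log2 units) in every array, for the 74 members, other genes of like expression and all genes, with 24-month arrays left of the line in each tissue. In liver and gastrocnemius the third 24-month array (-0.12 and -0.02 for the members) lies nearest the 6-month arrays.

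In gastrocnemius, 0 of 74 members were called by limma, where 0.00998% of all genes were called. By unadjusted p under 0.05, 29 members were lower and 1 higher, against 9.05% and 7.44% of all genes and 19.0% of like genes lower. Arrays did not overlap and were lower at 24 months for 11 members, against 4.78% of all genes and 11.2% of like genes, and higher for Mrpl47 alone, against 3.87% of all genes. The class with the most negative median was the mitochondria-specific proteins of the large subunit (-0.18), of which 12 of 19 had an unadjusted p under 0.05. The other classes had medians of -0.10 (large subunit, bacterial counterpart), -0.12 (small subunit, bacterial counterpart) and -0.11 (small subunit, mitochondria-specific). A joint fit with heart, which shares the spread of both tissues, called 9 members and 2.76% of all genes.

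Mrpl38, a protein of the central protuberance of the large subunit, had the smallest p in gastrocnemius. It read 7.99, 7.89, 8.06 and 7.91 in the 24-month muscles, against 8.16, 8.36, 8.45 and 8.30 in the 6-month muscles. Every older array lay below every younger one, and the difference was -0.36 ± 0.07 (SE, n = 4 and 4, adjusted p = 0.103).
Mrps7, in the head of the small subunit, read 7.72, 7.77, 7.86 and 7.76 at 24 months, against 7.93, 8.03, 8.12 and 8.0 at 6 months (difference -0.24, adjusted p = 0.113). Mrps18a, a large-subunit protein despite its name, read 6.75, 6.67, 6.86 and 6.68 at 24 months, against 6.89, 7.02, 7.10 and 7.01 at 6 months (difference -0.27, adjusted p = 0.119). Neither gene's age groups overlapped.

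Mrpl47 ran the other way. It read 7.55, 7.64, 7.68 and 7.71 in the 24-month gastrocnemius, against 7.52, 7.37, 7.21 and 7.39 at 6 months (difference 0.27, adjusted p = 0.127). All older arrays were above all younger ones, though replicate 1 of each age nearly met. Mrpl50, a mitochondria-specific large-subunit protein, and Mrps9, a small-subunit protein, differed by 0.10 and 0.11 with overlapping arrays (adjusted p = 0.31 and 0.347).

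In the gastrocnemius the median deviation of the members was -0.17, -0.11, -0.02 and -0.13 in the 24-month arrays, against -0.05, 0.02, 0.06 and -0.03 in the 6-month arrays. Replicate 3 of the older muscles fell within the younger range. The interquartile range of the values was 2.39, 2.39, 2.46 and 2.39 in the 24-month arrays, against 2.46, 2.47, 2.45 and 2.44 in the 6-month arrays. After quantile normalization the median of the members was -0.09. Then 20 members were lower at an unadjusted p under 0.05 (limma), against 29 as deposited. The share of all genes at that level was not counted after this scaling. The part of this spread in the members' values was not tested otherwise. The 5 skeletal muscle markers averaged 13.12 to 13.22 in 24-month arrays, against 13.23 to 13.29 in 6-month arrays, and 4 of 5 fibroblast markers 8.25 to 8.41, against 8.48 to 8.78. The B and plasma cell list averaged 5.64 to 6.35, against 5.36 to 5.64. The part of these lists in the members' values was not tested.

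In quadriceps, limma called 0 of 74 members, where 0.00502% of all genes were called. Unadjusted p-values under 0.05 were found for 5 members that were lower and 2 that were higher, against 3.26% and 3.8% of all genes and 7.06% of all genes in either direction. Arrays did not overlap and were lower for 11 members and higher for 5, against 5.33% and 6.69% of all genes and 8.47% of like genes lower. The mean was higher for 27 members, against 52.3% of all genes. Mrps16 had the smallest p. It read 8.52, 8.73 and 8.71 in the 24-month muscles, against 8.41, 8.35 and 8.48 in the 6-month muscles, which is higher without overlap (difference 0.24, adjusted p = 0.616). Mrpl2, a core protein next to the peptidyl transferase centre, read 8.57, 8.75 and 8.65, against 8.40, 8.52 and 8.48 (difference 0.19, adjusted p = 0.668), and Mrps12, a protein of the decoding site, differed by 0.12 with overlap.

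The lower members of quadriceps included Mrpl42, Mrpl47 and Mrpl41. Mrpl42, a mitochondria-specific large-subunit protein, read 8.96, 9.0 and 9.21 at 24 months, against 9.36, 9.28 and 9.25 at 6 months (difference -0.24, adjusted p = 0.622). Mrpl47 differed by -0.23 and Mrpl41 by -0.20, both without overlap. Replicate 1 of the 24-month quadriceps carried the highest hepatocyte markers, with a list mean of 9.23, against 6.17 to 7.67 in the other quadriceps arrays. That array also had the most negative median deviation of the members, -0.08, against -0.01 in each of the other 24-month arrays. Without it the median difference of the members was -0.01, as it was without replicate 3 of the 6-month quadriceps (-0.0142). Genes of like expression deviated by 0.02 in the array with high hepatocyte markers. The part of these markers in the members' values was not tested.

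In heart, 0 of 74 members were called, where 0.00665% of all genes were called. At an unadjusted p under 0.05, 1 member was higher and 0 lower, against 3.89% and 2.1% of all genes (5.98% in either direction) and 3.07% of like genes lower. All differences lay between -0.07 and 0.11. The higher gene was Mrpl40, a protein of the central protuberance. It read 7.68, 7.72, 7.59 and 7.62 in the 24-month hearts, against 7.53, 7.56, 7.57 and 7.53 in the 6-month hearts, which do not overlap (difference 0.11 ± 0.04, SE, n = 4 and 4, adjusted p = 0.81). It was the only non-overlapping member, where 1.94% of all genes were higher without overlap and 1.36% lower, with 2.61% of like genes lower. In order of p, Mrpl43 (0.09) and Mrpl14 (0.08) were next on the higher side, and Mrpl9 (-0.07), Mrpl51 (-0.06) and Mrps27 (-0.06) came first on the lower side. All of these had overlapping arrays. The largest difference was that of Mrps24 (0.11), also with overlap. The atrial marker list ranged from 7.73 to 10.69 in the 24-month hearts, against 9.43 to 10.64 in the 6-month hearts, and the cardiomyocyte list from 11.79 to 12.24, against 12.18 to 12.25. Their part in the members' values was not tested.

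Across tissues, the mean was lower at 24 months in all 4 tissues for 18 of 74 members (24.3%), against 6.94% of the 18970 common genes, and higher in all 4 for 0 members, against 11.9% of the common genes. Liver and gastrocnemius were both lower for 61 members (82.4%, against 22.7%). With 67 of 74 members lower in each of these tissues, most had to be lower in both. Of like genes, 80.8% were lower in liver and 64.9% in gastrocnemius, and their share lower in both was not counted. At an unadjusted p under 0.05 in both of these tissues, 6 members were lower (8.11%, against 1.27%), namely Mrpl37, Mrpl42, Mrpl48, Mrpl51, Mrps22 and Mrps30. Taken singly, liver had 31 members lower at that level and gastrocnemius 29, against 33.4% and 19% of like genes. The share of like genes lower in both at that level was not counted. Mrpl37 and Mrps30 are related large-subunit proteins, and Mrpl48 belongs to the central protuberance. Mrpl37 differed by -0.20 in liver and -0.32 in gastrocnemius, against 0.01 in quadriceps and -0.03 in heart.

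Mrpl51, Mrps27 and Mrpl24 lay in one direction in all 4 tissues, and among such members their weakest tissue had the smallest p. Mrpl51 differed by -0.38, -0.09, -0.06 and -0.15 in liver, quadriceps, heart and gastrocnemius. Mrps27 differed by -0.32, -0.06, -0.06 and -0.09 in that order, and Mrpl24 by -0.36, -0.09, -0.03 and -0.06. The members with the most negative values were not the same in liver and gastrocnemius: over the 74 members the differences correlated with Pearson's r = -0.35 and Spearman's rho = -0.37. As an example, Mrps18a differed by -0.13 in liver and -0.27 in gastrocnemius, and Mrpl1 by -0.41 in liver and 0.03 in gastrocnemius. Of the other pairs, Pearson's r was 0.36 between liver and quadriceps, 0.40 between liver and heart, 0.10 between quadriceps and heart, -0.11 between quadriceps and gastrocnemius and -0.26 between heart and gastrocnemius. These values are descriptions, since members are not independent and the arrays of a tissue enter all its differences.

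Whether the age difference itself depended on tissue was tested within each table. Between heart and gastrocnemius, 1 of 74 members was called, Mrpl38, where 0.595% of all genes were called. Its age difference was 0.05 in heart and -0.36 in gastrocnemius, so the heart stood above by 0.40 ± 0.08 (SE, 95% interval 0.22 to 0.58, adjusted p = 0.0453). In heart Mrpl38 read 8.40, 8.38, 8.32 and 8.31 at 24 months, against 8.25, 8.35, 8.37 and 8.25 at 6 months, with overlap. Mrpl38 lost its call in 13 of 16 fits with 1 array left out (adjusted p from 0.0212 to 0.107) and in 5 of 9 other alternatives, including all 3 other scalings (adjusted p = 0.0729, 0.0857 and 0.0761). Without replicate 3 of the 24-month gastrocnemius, 6 members and 1.82% of all genes were called.

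Mrpl43 and Mrps18a followed Mrpl38 in the comparison of heart with gastrocnemius without passing the threshold. Mrpl43, a mitochondria-specific protein of the large subunit, read 7.62, 7.68, 7.63 and 7.47 in the 24-month gastrocnemius, against 7.76, 7.98, 8.13 and 7.80 at 6 months. In heart it read 8.22, 8.21, 8.24 and 8.17 at 24 months, against 8.13, 8.18, 8.06 and 8.10 at 6 months. The age groups were separate in gastrocnemius and overlapped in heart, and the difference of differences was 0.41 (adjusted p = 0.0762). For Mrps18a it was 0.30 (adjusted p = 0.0848). By unadjusted p under 0.05, 24 members had a higher age difference in heart and 2, Mrpl47 and Mrps9, a lower one, against 8.83% and 4.93% of all genes. These counts were 16 and 2 after quantile normalization, 17 and 1 after centring, and 15 and 4 after cyclic loess. No share of like genes was taken, nor of all genes at that level under these scalings.

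**Figure D4:**
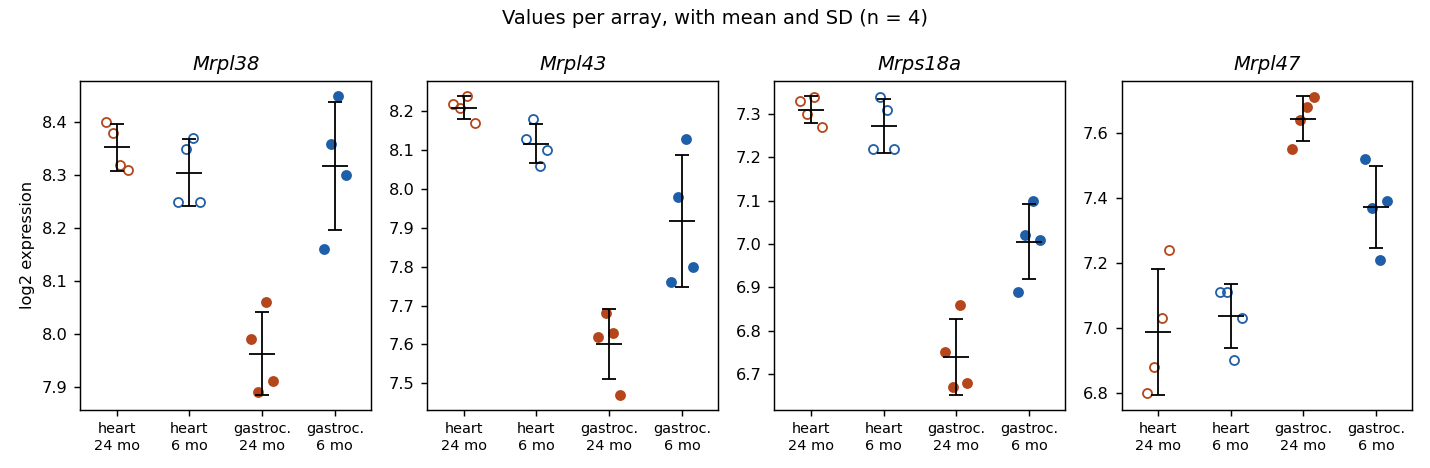
Log2 expression of Mrpl38, Mrpl43, Mrps18a and Mrpl47 in each array of heart and gastrocnemius at 24 and 6 months, with mean and SD (n = 4). In gastrocnemius the older arrays of the first 3 genes lie below all younger ones and those of Mrpl47 above, while in heart the ages of all 4 genes overlap.

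Between liver and quadriceps, 0 of 74 members were called for a different age difference, where 0.0151% of all genes were called. At an unadjusted p under 0.05, 17 members had a more negative difference in liver and 0 the reverse, against 9.39% and 10.4% of all genes. These counts were 6 and 2 after quantile normalization, 31 and 0 after centring, and 5 and 1 after cyclic loess. No share of like genes was taken, nor of all genes at that level under these scalings. The smallest p belonged to Mrpl11, at the base of the ribosomal stalk. In liver it read 8.37, 8.50 and 8.43 at 24 months, against 8.67, 8.67 and 8.70 at 6 months. In quadriceps it read 9.10, 9.20 and 9.16, against 9.08, 9.07 and 9.06. The older arrays were thus all lower in liver and all higher in quadriceps, and the difference of differences was -0.33 (95% interval -0.53 to -0.13, adjusted p = 0.111). It was -0.36 for Mrps34, a mitochondria-specific small-subunit protein, and -0.30 for Mrpl2 (adjusted p = 0.134 and 0.143). Without replicate 3 of the 24-month livers, 3 members were called, where 7.34% of all genes were.

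Levels of single members differed far more between tissues than between ages, and so did those of all genes. At 6 months, 50 of 74 members differed between liver and quadriceps (adjusted p under 0.05), 24 higher and 26 lower in liver. In this comparison 68.2% of all genes were called, 40.7% higher and 27.5% lower. The split depended on scaling: it was 10 higher and 44 lower after quantile normalization, 15 and 33 after centring on the median, and 14 and 34 after cyclic loess. Of all 19928 genes, 6166 were called higher and 7708 lower, 6746 and 6936, and 7030 and 6863, in the same order. The median of all genes was 0.10 as deposited and -0.06, -0.02 and 0.00 under these scalings. Under all 4 scalings 10 members stayed higher and 26 lower in liver, and the genes named next were among them. The share of all genes that stayed so was not counted.

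Mrpl24 was 1.05 higher in liver, at 9.44 ± 0.08 against 8.39 ± 0.02 in quadriceps (SD, n = 3 each, adjusted p = 1.96e-08). Mrps35, a mitochondria-specific small-subunit protein, was 0.91 higher and Mrpl39, which resembles a threonyl-tRNA synthetase in fold, 0.80 higher. On the other side, Mrpl42 read 7.36 ± 0.20 in liver and 9.30 ± 0.06 in quadriceps, a difference of -1.93 (adjusted p = 5.81e-09). Mrps36, the 2-oxoglutarate dehydrogenase component, differed by -1.80 and Mrpl23, a protein of the tunnel exit, by -1.27. The values of these genes did not overlap between the tissues.

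Between heart and gastrocnemius at 6 months, 46 of 74 members differed, 38 higher and 8 lower in heart, where 75.5% of all genes were called, 60.8% higher and 14.7% lower. Here the median of all genes was itself 0.27, and -0.01, -0.05 and 0.00 after quantile normalization, centring and cyclic loess. The split of the members became 18 higher and 21 lower, 7 and 39, and 17 and 19 under these scalings. Of all 30062 genes, 9005 were called higher and 9628 lower, 7879 and 11181, and 9401 and 9396, in the same order. Under all 4 scalings, 7 members stayed higher in heart (Mrpl4, Mrpl28, Mrpl33, Mrpl39, Mrps9, Mrps23 and Mrps35) and 8 lower (Mrpl1, Mrpl32, Mrpl35, Mrpl45, Mrpl47, Mrps14, Mrps21 and Mrps22). No such count was taken over all genes.

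Mrpl39 differed most, at 9.37 ± 0.03 in heart against 8.10 ± 0.02 in gastrocnemius (SD, n = 4 each, difference 1.28, adjusted p = 1.3e-13). Mrpl28 was 2.30-fold and Mrps35 2.23-fold higher in heart. Mrpl39 and Mrps35 were thus higher both in liver than in quadriceps and in heart than in gastrocnemius. Mrps14 was lowest relative to gastrocnemius (7.57 ± 0.05 in heart, 8.02 ± 0.04 in gastrocnemius, difference -0.45), followed by Mrpl47 (-0.34) and Mrps21 (-0.33).

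**Figure D5:**
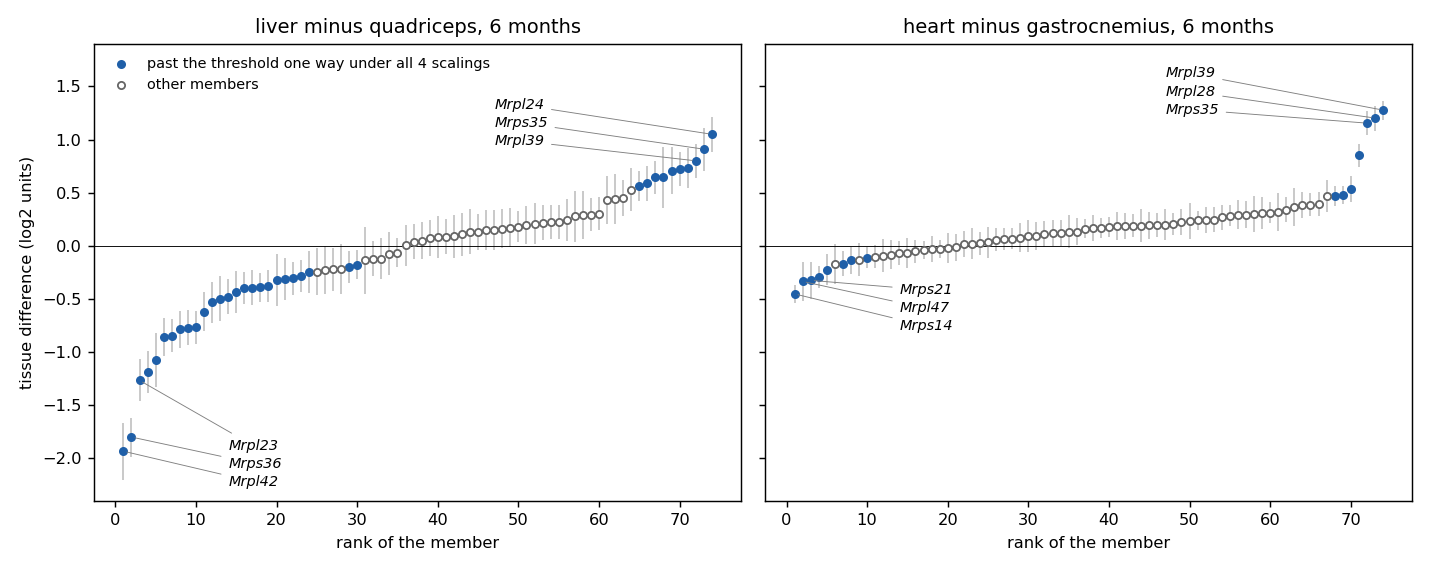
Tissue difference at 6 months (log2 units, with its 95% interval) of the 74 members, ranked, for liver minus quadriceps and heart minus gastrocnemius. Filled points passed the threshold in the same direction under all 4 scalings. The extremes are Mrpl42 at -1.93 and Mrpl24 at 1.05 on the left, and Mrps14 at -0.45 and Mrpl39 at 1.28 on the right.

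Other genes of the same pathway were taken as lists, and 0 of their genes passed the threshold for age in any tissue (limma). Mitochondrial translation factors read lower in older liver for 14 of 15 genes, with a median of -0.31 and 12 genes at an unadjusted p under 0.05. In liver 80.8% of the genes of like expression to the members were lower, 33.4% at an unadjusted p under 0.05. Of all genes, 45.1% were lower there, 14.4% at that level. Mtif2, the initiation factor that brings in the initiator tRNA, was 7.64 ± 0.16 in 24-month livers against 8.08 ± 0.04 in 6-month livers (SD, n = 3 each, adjusted p = 0.0543), and Slirp, which stabilises mitochondrial mRNAs, differed by -0.42. In quadriceps 14 of 15 factors were also lower, against 51.8% of like genes and 46.4% of all genes. Their median there was -0.10, with 0 at an unadjusted p under 0.05, and the medians were -0.04 in heart and -0.03 in gastrocnemius.

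Ribosome assembly factors had medians of -0.14 in liver, -0.02 in quadriceps, 0.00 in heart and -0.05 in gastrocnemius, over 27 genes. Mrm2, a methyltransferase of the large-subunit rRNA, was 6.81 ± 0.11 in 24-month gastrocnemius against 7.24 ± 0.06 at 6 months (SD, n = 4 each, difference -0.42, adjusted p = 0.0734), and 0.20 higher in 24-month heart. Of further mitochondrial ribosomal proteins that are no members, Mrpl58 among them, 5 were measured, and all 5 read lower in older liver and gastrocnemius. Most genes of like expression to the members also read lower in these tissues. The small-subunit protein Chchd1 differed by -0.33 in liver and -0.40 in gastrocnemius (adjusted p = 0.0847 and 0.12). The median of 16 mitochondrial aminoacyl-tRNA synthetases was -0.15 in liver, 0.01 in quadriceps, -0.02 in heart and -0.08 in gastrocnemius.

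Genes of mitochondrial transcription had a median of -0.19 in liver and 0.06 in gastrocnemius, and Tfam, which packages mitochondrial DNA and activates its transcription, differed by -0.44 in liver (adjusted p = 0.0688). Nuclear-encoded subunits of complex I, the respiratory complex that also contains products of this ribosome, were lower for 27 of 34 in liver (median -0.16) and 30 of 33 in gastrocnemius (median -0.14). Cytosolic ribosomal proteins were lower for 32 of 34 in gastrocnemius, with a median of -0.14, and for 36 of 55 in liver, with a median of -0.04. In liver 80.8% of the genes of like expression to the members and 45.1% of all genes were lower, and in gastrocnemius 64.9% and 44.0%. No share was taken for genes matched in level to these other lists. In gastrocnemius the cytosolic and mitochondrial ribosomal proteins had medians of -0.14 and -0.12, and in liver of -0.04 and -0.19. The cytosolic medians rest on unlike sets, with 34 and 55 genes measured of 78 listed. Transcripts of mitochondrial DNA itself were few: 2 measured in liver and quadriceps had medians of -0.08 and -0.15, and 6 in heart and gastrocnemius of 0.09 and 0.02. Some divergent partners of members were in these lists. Twnk differed by -0.34 in liver, where Mrpl43 differed by -0.16, and Fau, a cytosolic ribosomal protein gene, by -0.33 in gastrocnemius, where its neighbour Mrpl49 differed by -0.25. Sars2 differed by -0.16 in gastrocnemius, where its neighbour Mrps12 differed by 0.0025, and by 0.09 in quadriceps, where Mrps12 differed by 0.12. These partners were named for the smallest p of their lists, and the other pairs were not compared.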

How the data were processed

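The deposited values are log2 expression per probe set, produced by the authors with RMA (per the submitters' processing notes, version not given in the sources used here). They were used as deposited, with 2 tables of 12 and 16 arrays analysed separately. Symbols came from the platform annotation and were updated through the RefSeq GRCm38.p6 table (23 and 1121 symbols). Probe sets with several symbols were left out, and the probe set with the highest mean stood for each gene. In liver and quadriceps, the probe set numbers of Mrpl27, Mrpl41, Mrpl48, Mrpl51 and Mrps33 lie apart from those of members on the same chromosome. Where these probe sets lie in the genome was not checked. No filter on low values was applied. Age was tested within each tissue, and tissue and the tissue-by-age difference within each table, with limma 3.58.1 (R 4.3.3; lmFit and eBayes, two-sided), adjusted over all genes by Benjamini-Hochberg, and tested on simulated data.

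Named members were those with the smallest p per direction in each tissue and interaction, the largest tissue differences, and those of one direction in 4 tissues. Extra names carry a count. Members named by mean level alone were not compared, since probe sets of different genes have no common scale. Those of heart and gastrocnemius did enter the search for outlying arrays. The members and lists were chosen with earlier results of these data known. Same-numbered arrays were not treated as pairs: the correlations of their deviations ran from -0.22 to 0.30 and were over 0.1 in every pair of no tissue, though in 3 of 4 in gastrocnemius. Alternatives were other scalings, a filter on dim genes, every probe set, another variance prior, joint fits, array weights, a replicate block, a minimum fold of 1.2 and leaving out each array.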

Additional observations from a re-analysis of the deposited data

Results flagged for a closer look

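The age difference of Mrpl38 differed between heart and gastrocnemius by 0.40 log2 units in limma's interaction test (adjusted p = 0.0453), with the instability described above. Dixon's criterion was applied to 78 groups of 4 arrays, formed by the named members and the median of all members in heart and gastrocnemius. Of these groups, 4 held an array far from the other 3, which chance gives in about 1 group in 20. Mrps35 read 7.05 in replicate 2 of the 24-month hearts, against 7.18 to 7.20 in the other 3, and 6.15 in replicate 3 of the 24-month gastrocnemius, against 5.97 to 5.99. Mrpl46 read 6.38 in replicate 2 of the 24-month hearts, against 6.45 to 6.46. Mrps23 read 9.37 in replicate 2 of the 6-month hearts, where the other 3 arrays all read 9.35, a gap of the order of the rounding of the values.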

How the results depend on the processing

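The number of members past the threshold in liver, 0 as reported, was 20 after centring arrays on the median, 15 with dim genes left out, 16 with an intensity trend and robust prior, 25 in a joint fit with quadriceps, and 38 with array weights (37 lower, 1 higher). With 1 array left out it ran from 0 to 26, the 26, with 25.5% of all genes, without replicate 3 of the 24-month livers. Of all genes, 9.84%, 17%, 11.3%, 18.2% and 39.6% were called under those 5 settings, in that order. The liver median of -0.19 became -0.09 after quantile normalization (-0.0925) and cyclic loess (-0.0926) and -0.28 after centring, and ran from -0.24 to -0.15 with 1 array left out. The quadriceps count stayed 0 throughout, and its median was -0.01 with array weights (-0.0095) and -0.055 to -0.0108 with 1 array left out. The heart count stayed 0, and its median was -0.0113 after centring and -0.0083 to 0.0146 with 1 array left out. In gastrocnemius the count was 9 in the joint fit with heart (2.76% of all genes) and 0 with any 1 array left out, and the median was -0.0859 after quantile normalization, -0.0911 after cyclic loess and -0.14 to -0.10 with 1 array left out. For liver against quadriceps, the age differences that differed numbered 13 with array weights (12.7% of all genes) and 0 to 3 with 1 array left out (3, with 7.34% of all genes, without replicate 3 of the 24-month livers). The tissue differences numbered 26 under a minimum fold of 1.2 (44.7% of all genes) and 42 to 52 with 1 array left out (64.1% to 69.8%). For heart against gastrocnemius, the single differing age difference became 0 after quantile normalization, centring and cyclic loess, with every probe set and under the minimum fold, 4 with dim genes left out (2.85% of all genes), 6 with array weights (2.46%) and 0 to 6 with 1 array left out (6, with 1.82%, without replicate 3 of the 24-month gastrocnemius). The tissue differences there numbered 11 under the minimum fold (39.5% of all genes) and 42 to 49 with 1 array left out (72.2% to 76.2%). The difference of Mrps26 in liver, 0.02 as reported, was -0.07 after centring and -0.055 to 0.1 with 1 array left out, below 0 without replicate 2 of the 24-month livers (-0.055) and without replicate 1 (-0.01) or 3 (-0.015) of the 6-month livers. Mrpl51, Mrpl24 and Mrpl20 passed in liver under centring, the dim filter, the other prior, the joint fit and array weights (adjusted p from 0.00503 to 0.0368). With the replicate number as a block, the counts of members were 0 for age in each tissue and for liver against quadriceps. They were 1 for heart against gastrocnemius (0.669% of all genes) and 49 and 47 for the 2 tissue comparisons (67.4% and 75.3%). The pairing by number thus moved no count by more than 1.5 times. In gastrocnemius, where 3 of 4 same-numbered pairs correlated over 0.1, the block gave 36 members lower at an unadjusted p under 0.05, against 29 without it. The share of all genes at that level was not counted with the block. The cause of these changes was not tested.

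With 3 or 4 arrays per age, the median standard error of a member's difference was 0.09 in liver, 0.08 in quadriceps, 0.05 in heart and 0.06 in gastrocnemius, against median differences of -0.19, -0.04, 0.01 and -0.12. Signals of different probe sets have no common scale, and the 2 tables were normalized separately. Protein, translation and cell composition were not measured.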
